A study of Rattus norvegicus with 146 samples.

Results

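The liver was profiled here against 4 other organs of female rats, using a panel of 92 genes measured by quantitative PCR. The liver samples were found by the organ named in their labels, which gave 27 livers beside 119 samples of the other organs: 30 adrenal glands, 30 kidneys, 30 lungs and 29 spleens. The rats were of the spontaneously hypertensive strain (SHR), which develops high blood pressure as it ages, and of the Wistar-Kyoto strain (WKY), its usual normotensive comparison. Livers came from 15 SHR rats, with 3 rats at each of 8, 10, 12, 16 and 24 weeks of age, and from 12 WKY rats, with 3 at each of 8, 10, 16 and 24 weeks, and no rat was given a labelled treatment. No WKY liver of 12 weeks was among the samples. The other organs came from both strains at every one of these ages, so they included WKY rats of 12 weeks without a liver sample. By the rat numbers in the sample titles, each of the 27 rats with a liver sample also had a sample of every other organ.

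The liver is made up largely of hepatocytes, which secrete plasma proteins, dispose of nitrogen through the urea cycle, and handle fatty acids, amino acids and foreign compounds. It feeds the renin-angiotensin system, the hormone cascade that raises blood pressure: the liver releases angiotensinogen, from which angiotensin I is cut, and angiotensin-converting enzyme, abundant on the endothelium of the lung, turns that into angiotensin II. The remaining liver cells include endothelium, resident macrophages, stellate cells and the smooth muscle of vessels.

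A value is a Ct, the cycle at which the PCR product crosses the detection threshold, so a lower Ct means more transcript. A gene's level is the median Ct of its sample minus the gene's own Ct: it is on a log2 scale, 0 is the middle of the panel in that sample, and 1 unit is a doubling if each cycle doubles the product. Differences in level are tested for the same gene between organs, not between genes, because primer pairs differ in efficiency. In whole tissue, fewer cells of a type and less RNA per cell cannot be told apart. The median of the sample median Ct was 10.8 in the liver, against 10.5 in the adrenal gland, 10.2 in the kidney, 9.88 in the spleen and 8.68 in the lung. No liver sample had a median Ct over 2 cycles from that of its organ, whereas 3 adrenal glands, 1 lung and 2 spleens did, and 1 of these spleens lacked a Ct for 25 genes. Over the 57 genes with a Ct in every sample, the sample most similar to each of the 27 livers was another liver. With each of these genes centred on its mean over all samples, the lowest correlation between 2 livers was 0.727 and the highest between a liver and a sample of another organ was 0.254.

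Most panel genes differed between the liver and each organ: 82.2% against the adrenal gland, 80% against the kidney, 93.3% against the lung and 92.1% against the spleen. Liver and organ were compared gene by gene in 1 limma model over all samples of the 5 organs, with Benjamini-Hochberg adjustment within each organ and a threshold of 0.05. Of 90 genes tested, 23 (25.6%) were higher and 51 (56.7%) lower in the liver when set against adrenal tissue. Against the kidney, 26 of 90 (28.9%) were higher and 46 (51.1%) lower. Against the lung, 44 of 90 (48.9%) were higher and 40 (44.4%) lower, and against the spleen 37 of 89 (41.6%) were higher and 45 (50.6%) lower. The balance against the lung depended on the baseline: with the mean Ct of Actb, Gapdh and Rpl13a in place of the sample median, the liver was above the lung for 20 genes and below it for 61, and with no baseline (raw Ct) for 18 and 67. The raw Ct split was 17 higher and 54 lower against the kidney, and 23 higher and 49 lower against the spleen. Across the 89 genes tested against all 4 organs, and without that centring, the mean liver profile correlated with that of the kidney at 0.764, the adrenal gland at 0.763, the spleen at 0.671 and the lung at 0.667. These correlations are across genes, which are not independent, and the organs share rats and assays. Level differences between assays that all organs share therefore enter these correlations.

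**Figure D1:**
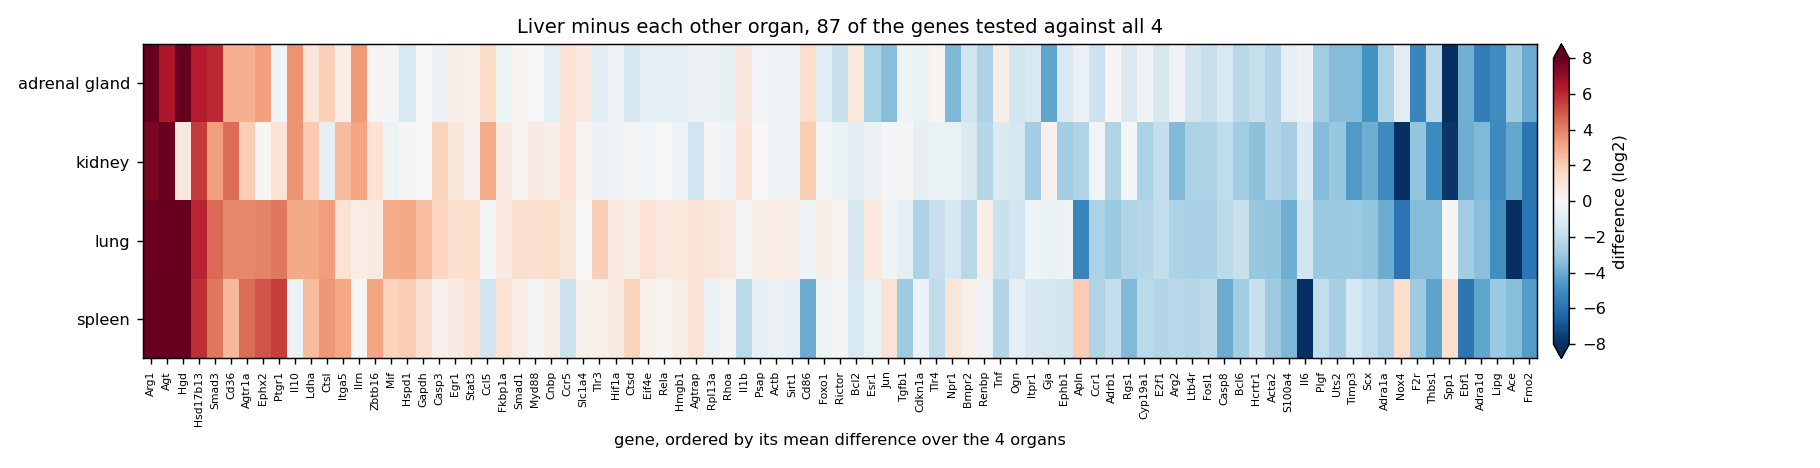
Difference between the liver and each other organ (log2 scale, colour) for 87 of the genes tested against all 4, ordered from left to right by the mean difference. Arg1, Agt and Hgd stand at the left end, although Hgd is pale against the kidney (0.91), and Lipg, Ace and Fmo2 stand at the right end.

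A gene was called highest in the liver when it was above each of the 4 organs at an adjusted p under 0.05 in each, and lowest when it was below each of them. By this rule 10 of 89 genes (11.2%) were highest and 22 of 89 (24.7%) were lowest. Full separation was rarer: every liver sample lay above every sample of the other organs for 5 genes (5.62%), Arg1, Agt, Hsd17b13, Smad3 and Agtr1a, and below all of them for 2 genes (2.25%), Lipg and Ace.

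Hepatocyte genes led the liver profile. Of the 4 panel genes of the hepatocyte list, 3 were highest in the liver, against 11.2% of all genes. Their gaps to the next organ were the 3 largest of the 10. The list held Agt, the marker given for the liver, and was chosen with earlier results of these data known. Over all 89 genes the median difference ran from -0.50 against the adrenal gland to 0.10 against the lung; over the 4 hepatocyte genes it ran from 6.39 against the adrenal gland to 7.00 against the lung. Arg1 encodes arginase 1, the last enzyme of the urea cycle. In the liver it ran from 6.16 to 7.54 with a median of 7.02, while the highest single value elsewhere was 0.64, in a kidney. The mean liver level was 6.93 ± 0.38 (SD, n = 27), 7.55 above the kidney, the next highest organ (SE 0.19, adjusted p = 4.12e-73), or about 187-fold. All 27 rats had more Arg1 in the liver than in their own kidney. One liver Arg1 value lay at 2.5, the lowest Ct in the table, so that level is a lower bound.

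Agt encodes angiotensinogen, the precursor of the angiotensins, and was the marker given for the liver. Liver levels ran from 6.20 to 7.48 with a median of 6.85. In the adrenal gland they ran from -6.58 to 4.12 with a median of 1.39, in the kidney from -3.19 to 2.20, in the lung from -4.67 to 0.57 and in the spleen from -2.35 to -0.40. The groups did not overlap, and the liver values spanned far less (SD 0.34) than the adrenal ones (SD 2.75). The liver was 6.50 above the adrenal gland (SE 0.39, adjusted p = 3.95e-34) and between 7.90 and 8.43 above the other 3 organs. Within the liver the mean was 6.71 ± 0.28 (SD, n = 15) in SHR and 7.06 ± 0.31 (SD, n = 12) in WKY. The kidney and lung had wider strain gaps, with mean Agt of -1.97 in SHR against -0.21 in WKY kidneys, and -2.75 in SHR against -0.49 in WKY lungs. Adrenal means went the other way, at 0.99 ± 1.60 in SHR and -0.36 ± 3.48 in WKY (SD, n = 15 each). In SHR samples alone the next highest organ was the adrenal gland, 5.72 below the liver, and in WKY samples alone it was the kidney, 7.06 below. The test of whether the liver minus the mean of the 4 other organs was unequal between strains gave an adjusted p of 0.747. Opposite strain gaps of single organs can cancel in that mean, so the test does not show that each gap was equal.

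Hsd17b13 encodes a hydroxysteroid dehydrogenase that sits on the lipid droplets of hepatocytes. Its liver level ran from 3.85 to 5.46 with a median of 4.75, and the highest value elsewhere was 1.36, in a spleen. It was 5.60 above the kidney (SE 0.21, adjusted p = 1.08e-53) and 6.28 above the adrenal gland. The 4 other organs lay close together, with means between -1.44 and -0.77.

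Ephx2, the fourth hepatocyte gene, was not highest. It encodes soluble epoxide hydrolase, which breaks down the vasodilator epoxides of arachidonic acid. Its liver level had no single centre: it ran from -5.63 to -3.77 in the 15 SHR livers and from -0.73 to -0.14 in the 12 WKY livers, with no overlap. The kidney was split in the same way, from -6.68 to -3.67 in SHR and from -0.70 to 0.51 in WKY. So were the adrenal gland (SHR -10.1 to -6.41, WKY -4.28 to -1.52) and the lung (SHR -9.80 to -6.88, WKY -4.88 to -3.74). Spleens ran from -13.0 to -8.11 in SHR and from -5.39 to -4.02 in WKY, again without overlap. The liver was above the adrenal gland by 3.27, the lung by 3.95 and the spleen by 5.00 (each adjusted p at most 1.36e-32). Liver and kidney differed by 0.08 (SE 0.20, adjusted p = 0.72), and 13 of 27 rats had the higher value in the liver. The sign of that small difference turned under 4 alternatives.

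**Figure D2:**
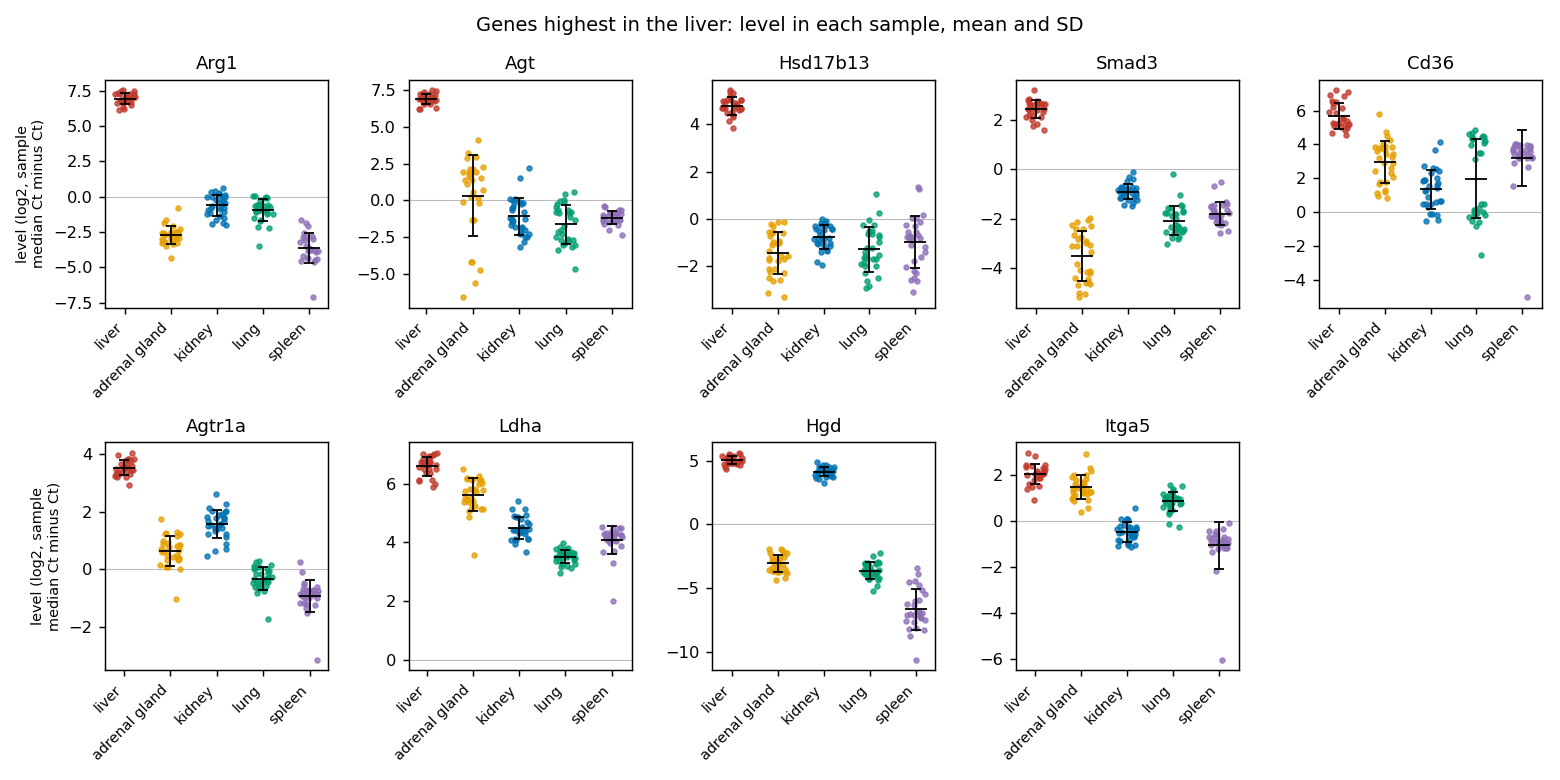
Level of 9 of the genes highest in the liver, 1 point per sample, with mean and SD per organ. Points of the liver stand clear of the rest for Arg1, Agt, Hsd17b13, Smad3 and Agtr1a, while kidneys reach the liver range for Hgd, adrenal glands for Ldha, and adrenal glands and lungs for Cd36 and Itga5.

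The renin-angiotensin genes took differing positions in the liver. Agt and Agtr1a were highest, Ace was lowest, and Agtrap was neither. Agtr1a encodes the type 1a angiotensin II receptor. Liver levels ran from 2.93 to 4.05 with a median of 3.53, above the kidney range of 0.45 to 2.63, the adrenal range of -1.02 to 1.76 and all values of the lung and spleen. The liver was 1.95 above the kidney (SE 0.12, adjusted p = 4.52e-33), about 3.85-fold, and higher in all 27 rats.

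Ace encodes angiotensin-converting enzyme. Livers ran from -5.70 to -2.71 with a median of -3.98, below every sample of the other organs. Lung levels ran from 2.65 to 4.59, and the liver was 7.97 below them (SE 0.15, adjusted p = 1.57e-90), about 251-fold. It was 4.10 below the kidney, 3.41 below the spleen and 2.86 below the adrenal gland, the next lowest organ (SE 0.15, adjusted p = 2.92e-39).

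Agtrap encodes a protein that binds the type 1 receptor and promotes its internalisation. Its liver mean of 0.89 lay 1.59 below the kidney (SE 0.20, adjusted p = 3.92e-13) and 0.44 below the adrenal gland (adjusted p = 0.0329), and about 1 unit above the lung (1.02) and spleen (1.11).

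The list of lipid and xenobiotic metabolism held 9 panel genes, among them Arg1, which is an enzyme of the urea cycle. Hsd17b13, Cd36 and Arg1 were highest, against 11.2% of all genes, Lipg, Fmo2 and Ltb4r were lowest, against 24.7% of all genes, and Ephx2, Ptgr1 and Psap were neither. Cd36 encodes a fatty acid transporter and scavenger receptor that carries a known genetic defect in some SHR colonies. In livers it ran from 4.58 to 7.22 with a median of 5.37, against -5.05 to 4.05 in the spleen and 0.83 to 5.79 in the adrenal gland. The adrenal values and those of the lung (highest 4.85) reached into the liver range. The liver was 2.58 above the spleen (SE 0.36, adjusted p = 1.16e-10) and higher in all 27 rats, with both strains pooled and 1 SHR spleen far below the others at -5.05. SHR livers had a mean of 5.12 ± 0.28 (SD, n = 15) and WKY livers 6.42 ± 0.57 (SD, n = 12). In the lung the strains were further apart, at -0.26 ± 0.74 in SHR and 4.20 ± 0.49 in WKY (SD, n = 15 each). The next highest organ by mean was the adrenal gland in SHR, at 3.47 ± 0.66 (SD, n = 15), and the lung in WKY, so the gap within either strain was smaller than the pooled one. The difference between the liver and the mean of the 4 other organs was 3.55 in SHR and 3.25 in WKY, and the test of their difference gave an adjusted p of 0.9.

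Ptgr1 encodes prostaglandin reductase 1, which inactivates eicosanoids such as leukotriene B4. Its liver level ran from 1.86 to 3.26 and the adrenal level from 1.72 to 3.42, a nearly complete overlap. The liver was 0.24 below the adrenal gland (SE 0.11, adjusted p = 0.0332) and 5.56 above the spleen (SE 0.11, adjusted p = 9.16e-89). The first of these calls was lost when any 1 of 8 samples was left out and under several alternatives, while the liver stood above the lung by 4.23 and the kidney by 1.18. Psap, which encodes the precursor of the saposins of lysosomal lipid breakdown, had a liver mean of -7.72 that differed from the kidney by -0.01 and from the spleen by -0.66 (adjusted p = 3.20e-04).

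Fmo2 and Lipg were among the most depleted genes of the liver. Fmo2 encodes a flavin-containing monooxygenase best known from the lung. Levels in the liver ran from -7.42 to -4.00 with a median of -5.52, while kidneys ran from -1.01 to 1.36 and lungs from -1.33 to 0.80. The liver was 5.85 below the kidney, 5.81 below the lung and 3.97 below the adrenal gland (SE 0.18, adjusted p = 1.00e-44), and 1 spleen at -5.58 was the sole sample of another organ inside the liver range. Lipg encodes endothelial lipase, which cleaves the phospholipids of high-density lipoprotein. In the liver it ran from -7.81 to -4.13, below every other sample. The next lowest organ was the spleen, 2.97 above the liver (SE 0.19, adjusted p = 1.33e-31). Ltb4r, which encodes a leukotriene B4 receptor, was 1.49 below the adrenal gland (SE 0.30, adjusted p = 2.95e-06), where the ranges overlapped and 18 of 27 rats had the lower value in the liver.

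Other genes highest in the liver belong to other functions. Smad3 encodes a transcription factor that carries the signal of transforming growth factor beta. Its liver level ran from 1.58 to 3.20 with a median of 2.44, and no other sample exceeded -0.12. It was 3.35 above the kidney (SE 0.16, adjusted p = 1.41e-42) and 5.94 above the adrenal gland. Hgd encodes homogentisate dioxygenase of tyrosine breakdown. It was shared with the kidney: liver levels ran from 4.39 to 5.64 and kidney levels from 3.23 to 4.92, whereas the other organs did not exceed -1.90. The liver was 0.91 above the kidney (SE 0.23, adjusted p = 1.86e-04), higher in 26 of 27 rats, and 11.8 above the spleen, the widest gap between the liver and another organ among genes tested for level.

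Ldha encodes the lactate dehydrogenase A subunit, and was 0.97 above the adrenal gland (SE 0.11, adjusted p = 1.98e-14). Liver levels ran from 5.89 to 7.05 and adrenal levels from 3.58 to 6.49, with overlap, and 25 of 27 rats had the higher value in the liver. The adrenal value of 3.58 lay at the lowest Ct of the table, in a sample with a median Ct of 6.08, and is a lower bound. Itga5 encodes the alpha 5 integrin subunit of the fibronectin receptor and had the smallest gap, 0.57 above the adrenal gland (SE 0.16, adjusted p = 8.44e-04), with liver levels of 0.90 to 2.98 inside a wide overlap with adrenal levels of 0.40 to 2.95. The call for Itga5 was lost with the mean of the reference genes as baseline, with raw Ct values (0.29, adjusted p = 0.376) and in WKY samples alone (0.25, adjusted p = 0.0864). Hgd also lost its call with raw Ct values, at an adjusted p of 0.108.

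Promoter windows of the highest genes are shown so that the sequence at these starts can be read beside the levels. RefSeq windows of 300 bases, from 250 before to 50 after 1 annotated transcript start, were present for 69 of the 92 panel genes and for 7 of the 10 highest genes. The 4 of these with the widest gap to the next organ follow, on the GRCr8 build and read 5′ to 3′ along the gene. Hsd17b13 is at chr14:6056539-6056838 on the plus strand, Smad3 at chr8:73132275-73132574 on the minus strand, Cd36 at chr4:18246332-18246631 on the plus strand and Agtr1a at chr17:34435383-34435682 on the minus strand. Capitals mark the letters CAAAGT, a half-site of the hepatocyte nuclear factor HNF4, and TATAAA, the TATA box, on either strand.
Hsd17b13: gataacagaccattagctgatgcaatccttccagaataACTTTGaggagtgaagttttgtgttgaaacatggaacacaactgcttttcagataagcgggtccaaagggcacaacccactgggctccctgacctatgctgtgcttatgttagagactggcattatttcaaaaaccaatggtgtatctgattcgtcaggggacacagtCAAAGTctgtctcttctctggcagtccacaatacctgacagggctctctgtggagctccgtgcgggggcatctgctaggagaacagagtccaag
Smad3: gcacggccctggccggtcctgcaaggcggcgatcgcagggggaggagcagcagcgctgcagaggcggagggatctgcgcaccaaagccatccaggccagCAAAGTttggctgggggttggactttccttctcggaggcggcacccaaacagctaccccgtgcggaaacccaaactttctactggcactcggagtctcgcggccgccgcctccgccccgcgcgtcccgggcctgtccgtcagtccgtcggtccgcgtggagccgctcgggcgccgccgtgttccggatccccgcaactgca
Cd36: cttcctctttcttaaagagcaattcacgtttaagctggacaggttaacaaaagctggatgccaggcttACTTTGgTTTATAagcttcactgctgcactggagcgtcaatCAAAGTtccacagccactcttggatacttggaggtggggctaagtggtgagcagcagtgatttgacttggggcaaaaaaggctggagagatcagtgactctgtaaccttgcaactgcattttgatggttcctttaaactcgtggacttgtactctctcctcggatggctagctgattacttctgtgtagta
Agtr1a: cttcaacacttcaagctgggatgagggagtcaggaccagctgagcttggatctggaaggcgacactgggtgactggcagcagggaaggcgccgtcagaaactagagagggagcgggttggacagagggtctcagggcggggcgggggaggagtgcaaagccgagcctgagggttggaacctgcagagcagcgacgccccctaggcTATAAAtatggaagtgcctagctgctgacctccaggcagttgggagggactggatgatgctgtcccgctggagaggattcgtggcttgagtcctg
The CAAAGT letters stood in 4 of the 7 windows of highest genes (57.1%), in 3 of 17 windows of lowest genes (17.6%), in 9 of 69 panel windows (13.0%) and in 4954 of 33469 windows of the same length (14.8%). TATAAA stood in 2 of 7 windows (28.6%), against 14.2% of all. The C/EBP letters TTGCNNAA stood in 1 of 7 (14.3%), against 10.6% of all. The letters GTTAAT of an HNF1 half-site and TGTTTAC of FOXA stood in none of the 7, against 7.45% and 3.78% of all. No marked stretches overlapped in the 4 windows printed. These matches describe the letters alone.

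The genes lowest in the liver included genes of vessels and matrix. All 3 panel genes of the endothelium list used here, Ace, Lipg and Plgf, were lowest, against 24.7% of all genes. This list, too, was chosen with earlier results of these data known, and Ace is also counted among the renin-angiotensin genes. Plgf, which encodes placental growth factor, ran from -6.25 to -2.93 in the liver and was 1.95 below the spleen (SE 0.22, adjusted p = 3.52e-15), with overlap, and lower in 24 of 27 rats. Of 8 genes of matrix and smooth muscle, Acta2, Thbs1, Scx and S100a4 were lowest, Smad3 and Itga5 highest, and Spp1 and Tgfb1 neither, against 24.7% lowest and 11.2% highest over all genes. Acta2 encodes smooth muscle actin. Its liver level ran from -2.26 to -0.16, while kidneys ran from -0.07 to 2.67, and the liver was 2.32 below the kidney (SE 0.23, adjusted p = 5.30e-18). Thbs1 encodes the matrix glycoprotein thrombospondin 1. It was 2.11 below the adrenal gland (SE 0.21, adjusted p = 3.18e-17) and 5.09 below the kidney, where liver levels of -3.04 to -1.17 and kidney levels of 2.51 to 4.16 stood far apart. Scx encodes the tendon transcription factor scleraxis, and was 1.97 below the spleen (SE 0.31, adjusted p = 7.47e-09) and 4.81 below the adrenal gland.

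Spp1 encodes osteopontin, a secreted matrix protein, and lay further below the adrenal gland than any other of the 90 genes tested for level against that organ. Liver levels ran from -3.19 to 0.07, adrenal levels from 3.01 to 8.64 and kidney levels from 4.52 to 6.70. The liver was 9.35 below the adrenal gland and 7.81 below the kidney (SE 0.26 each, adjusted p = 1.19e-69 and 1.60e-60), did not differ detectably from the lung (0.10, adjusted p = 0.706), and was 1.32 above the spleen. Of the 30 adrenal values, 13 lay at the lowest Ct of the table, and values at that floor have no order among themselves. Nox4, an NADPH oxidase strongly expressed in kidney, had liver levels of -6.85 to -3.37 against kidney levels of 0.69 to 5.47, a difference of -9.11 (SE 0.26, adjusted p = 3.19e-67). It was 5.90 below the lung and 0.92 below the adrenal gland, but 1.39 above the spleen, so it was not lowest.

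**Figure D3:**
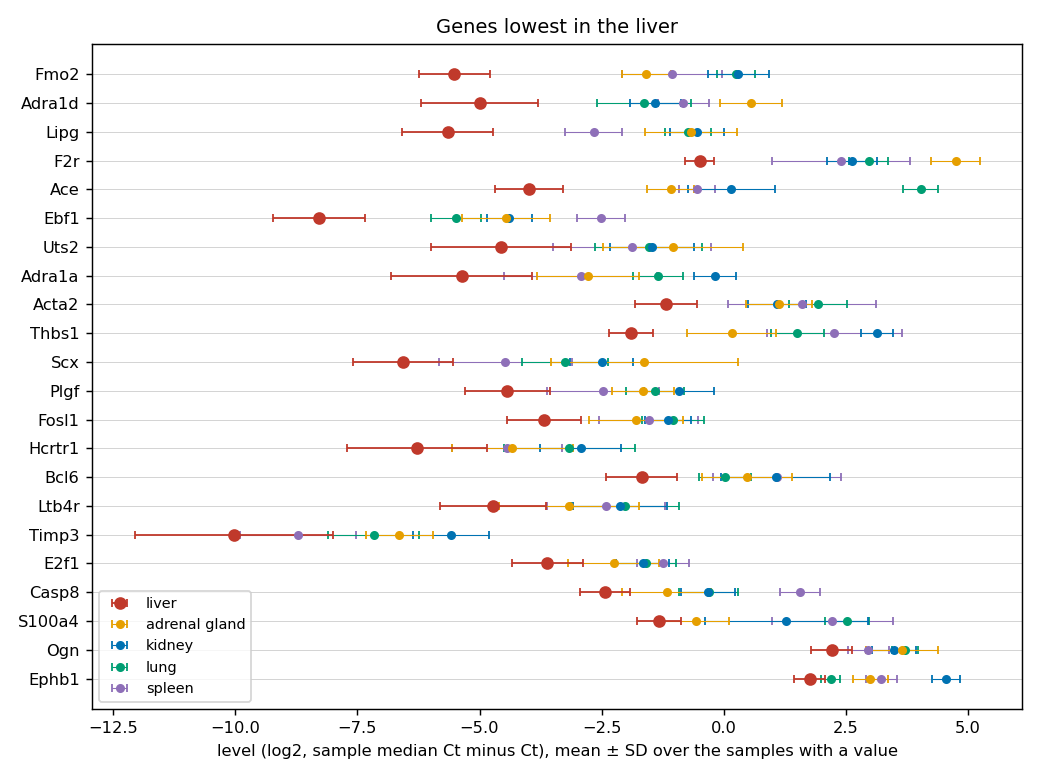
Mean level and SD in each organ of the 22 genes lowest in the liver, ordered from top to bottom by the gap to the next lowest organ. The liver mean is the leftmost point in every row, from a gap of 3.97 for Fmo2 to one of 0.42 for Ephb1.

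Of 3 adrenergic and catecholamine genes tested, Adra1a and Adra1d were lowest, against 24.7% of all genes, and Adrb1 was neither. Adra1d and Adra1a encode alpha 1 adrenoceptors, which contract vascular smooth muscle. The Adra1d level had a liver median of -4.85 and a range of -8.38 to -2.82 over 26 livers. It was 3.32 below the lung (SE 0.21, adjusted p = 7.44e-32) and 5.51 below the adrenal gland, and lower than in either organ in all 26 rats. The Adra1a level ran from -9.31 to -3.08 in the liver and from -6.47 to 0.26 in the spleen, and was 2.40 lower in the liver (SE 0.28, adjusted p = 6.81e-14) and lower in 23 of 27 rats.

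Of 5 vasoactive peptide and receptor genes tested, F2r, Uts2 and Hcrtr1 were lowest, against 24.7% of all genes, and Apln and Npr1 were neither, with levels above those of the spleen. F2r encodes the main thrombin receptor. Its liver level kept to a narrow range of -1.32 to 0.00, while adrenal levels ran from 3.58 to 5.58, kidney levels from 1.47 to 4.06 and lung levels from 1.72 to 3.63. The adrenal value of 3.58 lay at the lowest Ct of the table and is a lower bound. The liver was 2.90 below the spleen (SE 0.20, adjusted p = 1.69e-29) and 5.25 below the adrenal gland, and 1 spleen at -4.75 lay under the liver range. Uts2 encodes the vasoconstrictor peptide urotensin 2, and was 2.65 below the spleen (SE 0.34, adjusted p = 3.20e-12). Hcrtr1 encodes an orexin receptor, and was 1.79 below the spleen (SE 0.31, adjusted p = 9.00e-08). For both genes the liver overlapped the spleen.

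Immune genes were mixed. None of the 10 cytokine, chemokine and receptor genes and none of the 6 innate signalling genes was highest or lowest in the liver, against 11.2% and 24.7% of all genes. Of 4 lymphocyte genes Ebf1 and Bcl6 were lowest, against the same 24.7%, and of 3 macrophage genes none was highest or lowest. Ebf1 encodes a transcription factor that specifies B cells. Its liver level, available in 15 livers, ran from -9.66 to -6.06, while spleens ran from -4.43 to -1.86, and the liver was 5.78 below the spleen (SE 0.20, adjusted p = 1.28e-56). It was 2.80 below the lung, the next lowest organ. Bcl6 encodes a repressor needed in germinal centre B cells, and was 1.77 below the lung (SE 0.25, adjusted p = 1.52e-10). Fosl1, a member of the Fos family, was 1.84 below the adrenal gland (SE 0.21, adjusted p = 4.92e-15). The 5 lowest genes that the rule for named genes left out, named here after their values were seen, were Casp8, E2f1, Ephb1, Ogn and S100a4, with gaps to the next lowest organ between -1.31 for E2f1 and -0.42 for Ephb1. Some lowest calls were lost under alternatives. S100a4 lost its call with the reference genes as baseline and in WKY samples alone, Ephb1 with missing values filled, and Timp3 in WKY samples alone. Others had too few liver values to be tested. These were Ebf1 in either strain alone (8 SHR and 7 WKY livers) or with at least 20 values per organ, and Timp3 in SHR alone (8 livers).

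Missing Ct values made up a larger share in the liver than in any other organ. The liver lacked 4.35% of its values, against spleen 2.96%, kidney 1.81%, lung 1.34% and adrenal gland 1.12%, and each liver lacked between 2 and 7 genes. A missing Ct means that no product was detected within the 30 cycles run or that the reaction was not accepted, and it was counted, not filled. The liver also had the highest typical median Ct, and the part of that in the missing values was not tested. Of 92 genes, 6 (6.52%) were missing more often in the liver than in the other 119 samples by Fisher's exact test (two-sided, Benjamini-Hochberg over the panel). The count was 6 in SHR samples alone and 4 in WKY samples alone.

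Esr2, which encodes estrogen receptor beta, had no Ct in 24 of 27 livers, against 10 of 30 kidneys, 7 of 30 adrenal glands, 3 of 29 spleens and 0 of 30 lungs (adjusted p = 1.47e-10). Th encodes tyrosine hydroxylase, the first enzyme of catecholamine synthesis. It was missing in 23 of 27 livers and in 19 of the 119 other samples (adjusted p = 5.04e-10). Those 19 were 10 of 30 lungs, 8 of 30 kidneys and 1 of 29 spleens, with 0 of 30 adrenal glands. Adrenal Th levels ran from 3.49 to 6.24, and the 4 livers with a value lay between -9.97 and -7.60. With 3 and 4 liver values, Esr2 and Th were not tested for level.

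Il6, which encodes the cytokine interleukin 6, was missing in 16 of 27 livers and in 5 of the 119 other samples (adjusted p = 6.15e-09). In the 11 livers with a value its level ran from -8.84 to -7.06, against -1.98 to 1.42 in the spleen, a difference of -8.06 (SE 0.26, adjusted p = 1.00e-55). The liver and adrenal gland differed by -0.47 (adjusted p = 0.087), so Il6 was not called lowest. Ebf1 was missing in 12 of 27 livers and 1 other sample (adjusted p = 3.79e-08). Cdkn1a, which encodes the cell cycle inhibitor p21, was missing in 14 of 27 livers and 17 of 119 others (adjusted p = 0.00143). Timp3, which encodes an inhibitor of matrix metalloproteinases, was missing in 7 livers and 2 others (adjusted p = 0.00154). When missing values were filled with the highest Ct of the table, Il6, Esr2, Th and Cdkn1a joined the lowest genes.

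**Figure D4:**
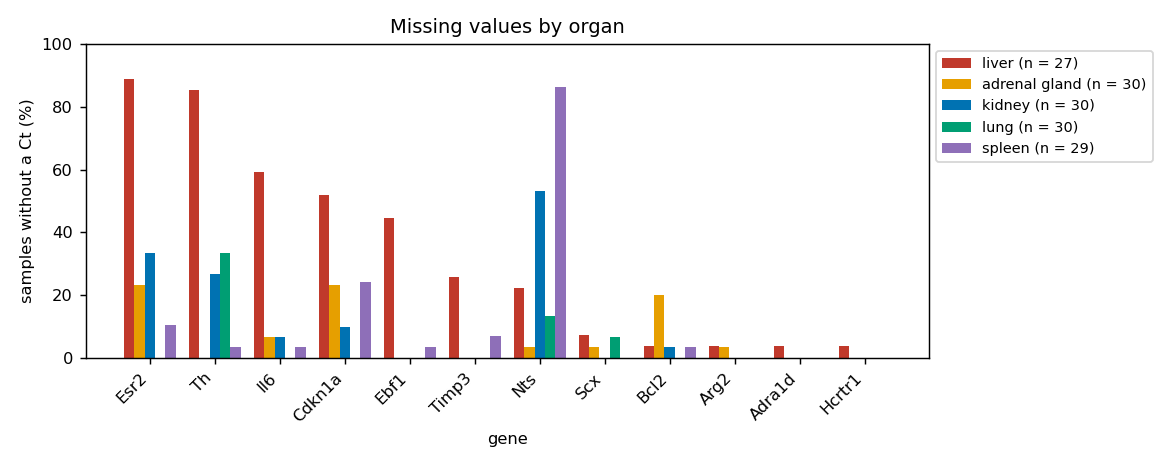
Share of samples without a Ct (%), by organ, for the 12 genes that lacked a Ct in 1 or more livers. Esr2 and Th lack a Ct in most livers, whereas Nts lacks one in 25 of 29 spleens and 6 of 27 livers.

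The missing values of 2 genes fell unevenly between strains within the liver, a pattern chosen after the values were seen. Cdkn1a had no Ct in 12 of 15 SHR and 2 of 12 WKY livers (Fisher's exact test, two-sided, p = 0.00184), and Timp3 in 7 of 15 SHR and 0 of 12 WKY livers (p = 0.00814). Neither passed adjustment over the 92 genes, with adjusted p values of 0.169 and 0.374. For Cdkn1a the imbalance was also seen outside the liver, where it was not tested. A Cdkn1a Ct was present in 9 of 15 SHR and 14 of 15 WKY adrenal glands. It was present in 12 of 15 SHR and 15 of 15 WKY kidneys. The spleen had one in 8 of 15 SHR and 14 of 14 WKY samples, and every lung had one.

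The liver difference was unequal between strains for 5 of 89 genes (5.62%), with 11 at an unadjusted p under 0.05. The quantity tested was the liver level minus the mean of the 4 other organs, in SHR minus WKY. For Timp3, SHR livers had a value in 8 of 15 rats, running from -13.8 to -8.33, and WKY livers in all 12, running from -11.7 to -7.51. The liver difference was -4.58 in SHR and -1.94 in WKY, which differ by -2.64 (SE 0.48, adjusted p = 2.32e-05). The strain ranges overlapped, and the 7 SHR livers without a Ct do not enter the value. Esr1, which encodes estrogen receptor alpha, had liver levels of -8.02 to -5.50 in SHR and -6.82 to -4.52 in WKY, again overlapping. Its liver difference was -1.33 in SHR and 0.19 in WKY, a difference of -1.53 (SE 0.31, adjusted p = 9.82e-05).

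The remaining 3 genes differed less. Apln encodes apelin, a vasodilator peptide; its mean liver level was -4.89 ± 1.27 in SHR (SD, n = 15) and -3.73 ± 0.43 in WKY (SD, n = 12), and the liver difference was lower in SHR by 1.11 (SE 0.32, adjusted p = 0.0159). Mif encodes macrophage migration inhibitory factor, with liver means of 3.05 ± 0.33 in SHR and 3.52 ± 0.40 in WKY, and an interaction of -0.53 (SE 0.15, adjusted p = 0.0138). Slc1a4 encodes a neutral amino acid transporter, with liver means of -0.73 ± 0.29 in SHR and -1.33 ± 0.43 in WKY, and an interaction of 0.77 (SE 0.23, adjusted p = 0.0212). With raw Ct values, none of the 5 passed. With the mean of the reference genes as baseline Timp3 and Esr1 passed, and the adjusted p values of Mif, Apln and Slc1a4 were 0.23, 0.226 and 0.0831. With the median of genes complete in every sample as baseline, Mif and Apln each had an adjusted p of 0.104. Without the 12-week samples, which leaves the ages with both strains in the liver, 4 genes passed and Mif did not (-0.45, adjusted p = 0.0731). Slc1a4 was at 0.383 with missing values filled with the highest Ct of the table. Leaving out 1 liver ended the call of Apln (SHR rat 1 at 10 weeks, adjusted p = 0.0533) and that of Slc1a4 (WKY rat 3 at 24 weeks, adjusted p = 0.0538). Without the SHR spleen of rat 2 at 24 weeks, the one lacking 25 genes, 8 genes passed.

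**Figure D5:**
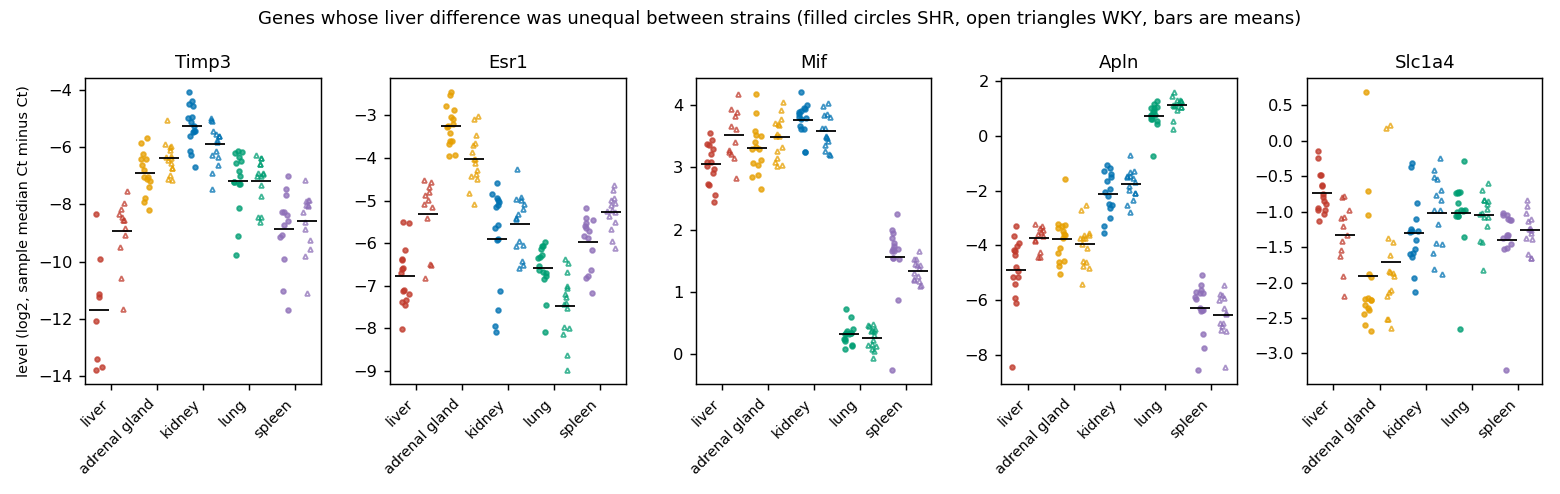
Level by organ and strain of the 5 genes whose liver difference was unequal between strains; filled circles are SHR samples, open triangles WKY samples and bars the means. In the liver, SHR lies below WKY for Timp3, Esr1, Mif and Apln, and above it for Slc1a4 (means of -0.73 and -1.33).

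Few liver differences were unequal between ages. Of 88 genes tested, 2 (2.27%) had a liver difference that was unequal between the 5 ages, with 12 at an unadjusted p under 0.05. Cdkn1a passed with an adjusted p of 7.27e-05, but its only liver value at 12 weeks was a single SHR rat at -14.6, and the other 12 livers with a value ran from -9.26 to -6.59. Without the 12-week samples its adjusted p was 0.912. Lipg passed with an adjusted p of 0.0128: its liver difference was -4.32 at 8, -4.60 at 10, -5.81 at 12, -4.76 at 16 and -3.54 at 24 weeks. Liver levels at 12 weeks came from SHR alone, at -7.81, -6.80 and -6.27 in the 3 rats, and at 24 weeks ran from -5.36 to -4.29 in SHR and from -5.46 to -4.13 in WKY. Without the 12-week samples the adjusted p of Lipg was 0.387. The liver differences of Arg1, Agt and Hsd17b13 gave adjusted p values of 0.987, 0.972 and 0.972 by age.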

How the data were processed

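Ct values of 92 genes in samples of 5 organs were measured by quantitative PCR with EvaGreen on 2 microfluidic BioMark arrays after 12 cycles of pre-amplification, with 30 cycles run, per the labels' protocols. The table deposited by the authors holds Ct values that are not normalized; the sources used here do not say how Ct was called. Of 13432 values, 305 (2.27%) were missing and 120 lay at the lowest Ct, 2.5. The authors' normalized sheet, centred within each organ, and their fold change sheet were not used.

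Groups came from the sample titles, and the 3 samples of a group are separate rats. For 1 SHR spleen the strain field says WKY, and the title was followed; column headers write the last age as 23 weeks where the labels give 24; 2 adrenal columns with one shared header could be matched to their group only. The labels used here do not give the array of each value, so an array effect was not tested.

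The level, the sample median Ct minus the gene's Ct, was computed here. Organs were compared with limma 3.58.1 in R 4.3.3, with organ and strain-by-age group as terms and no block. A gene was tested where at least 10 samples of both organs had a value, so levels of often missing genes rest on the samples with a Ct. The strain test used all samples with ages as additive terms, although ages with both strains in the liver had been intended, and in the fit without 12-week samples, which covers the latter, Mif did not pass. Same-numbered samples were taken to come from the same rat, and counts of rats rest on that pairing. The median correlation of their deviations from group means, liver against each organ, was between -0.03 and 0.15. These values do not settle the pairing. Ct values carry no count of molecules, so the number of samples sets the precision. The methods were tested on simulated data. Genes and lists were chosen with earlier results of these data known. The named genes were all genes called highest, the 15 lowest by gap to the next lowest organ, genes missing in 50% or more of the livers, members of the hepatocyte, renin-angiotensin and lipid lists, the 3 genes furthest apart in each direction from each organ, and genes passing by strain or age. Alternatives changed the baseline, missing and floor values, filter, samples, model and block. Results of some genes that the rule names are not reported here.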

Additional observations from a re-analysis of the deposited data

Results flagged for a closer look

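The liver difference of 5 genes was unequal between the strains in a test of that inequality, given as SHR minus WKY for liver minus the mean of the 4 other organs: Timp3 at -2.64, Esr1 at -1.53, Apln at -1.11, Mif at -0.53 and Slc1a4 at 0.77. The Timp3 value rests on 8 of 15 SHR and 12 of 12 WKY livers. The liver difference of 2 genes was unequal between ages, Cdkn1a with an adjusted p of 7.27e-05 and Lipg with an adjusted p of 0.0128 in the limma F test. The Cdkn1a value rests on 1 liver at 12 weeks.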

How the results depend on the processing

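Of the 10 genes highest in the liver, all 10 were shared with every alternative except 3: the mean of the reference genes as baseline (9), raw Ct values (7) and WKY samples alone (9 shared of 12). The count of lowest genes ran from 20 to 31. The animal as a random block, with a within-animal correlation of 0.0452, gave the same 10 and 22 genes and the same counts against each organ, and 6 genes by strain in place of 5. The median difference from the lung was 0.13 with the sample median, -1.22 with the reference genes and -1.72 with raw Ct values, and the counts follow that shift: 20 higher and 61 lower than the lung with the reference genes, and with raw Ct values 18 higher and 67 lower than the lung, 17 higher than the kidney and 23 higher than the spleen. The difference of Ephx2 between liver and kidney turned to -0.0284 with the median of complete genes, -0.29 with raw Ct values, -0.19 with organ means only and -0.20 in WKY samples alone, and that of Ptgr1 from the adrenal gland turned to 0.0343 with the reference genes. By strain, the count was 2 with the reference genes, 0 with raw Ct values and 8 without the samples of aberrant median Ct. By age it was 1 with the median of complete genes, with the reference genes, with raw Ct values, with missing values filled with the highest Ct of the table, with at least 20 values per organ and in SHR samples alone, and 0 with each gene's highest Ct plus 1 cycle, in WKY samples alone and without the 12-week samples. The cause of these changes was not tested.

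Leaving out each sample in turn gave 10 to 11 highest genes, 22 to 23 lowest genes, an Agt gap of 6.28 to 6.62, 6 genes missing throughout, 5 to 8 genes by strain and 0 to 4 by age. The age count was 4 without SHR liver rat 1 and 0 without SHR liver rat 2 at 12 weeks, and 1 without SHR liver rat 2 or WKY liver rat 3 at 24 weeks. The strain count was 8 without SHR spleen rat 2 at 24 weeks. Genes often without a Ct and values at the lowest Ct limit what these data can show.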
